A study of Mus musculus with 8 samples.

Results

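The genes described here are 36 genes of the cell cycle, taken as a list by symbol and found in the count tables of all 8 libraries by their Ensembl identifiers. They are 36 of the 54838 genes in the tables, and all 36 had enough counts to be tested beside 17839 genes in all. RNA was sequenced from epidermis, the outer epithelium of mouse skin, which had been separated with trypsin. The groups were control and Ovol1/2 iDKO mice, each at 25 DPI and at 52 DPI with 2 biological replicates, and iDKO and DPI are written as in the labels. Ovol1 and Ovol2 code for epithelial zinc finger transcription factors. The sources used here do not give the genotype of the control mice, the way the deletion was driven, or the ages of the animals. The list was divided into 7 genes of G1 and entry into S phase, 10 genes of S phase and DNA replication, and 19 genes of G2 and mitosis.

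A dividing cell passes through G1, copies its DNA in S phase, and separates the copies in mitosis after G2. D-type cyclins with Cdk4 and E-type cyclins with Cdk2 release E2F transcription factors from the retinoblastoma protein, and E2F factors switch on the genes of DNA replication, among them the MCM subunits of the helicase that opens DNA. Genes of G2 and mitosis are expressed later under the MYB and FOXM1 proteins, through promoter elements that include the CCAAT box and the cell cycle homology region (CHR). In epidermis division takes place in the basal layer and in the hair follicle, and cells leave the cycle as they move outward.

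The libraries held 9824307 to 50711381 counts. Replicate 1 and replicate 2 differed in the share of counts on the second strand, 49.76% to 49.97% against 95.37% to 95.73%, although the labels name 1 kit. Each iDKO library was therefore also compared with the control library of its time and replicate number, which gives 4 pairs. Ovol1 and Ovol2 counts were higher in the iDKO library of 4 of 4 pairs, so these libraries are called iDKO-labelled below, and counts per gene do not show whether deleted exons were lost. Zeb1, a gene that Ovol factors are known to repress, was at 2.04 to 3.33 CPM (counts scaled by library size and by TMM, trimmed mean of M values, factors) in controls and at 14.4 to 35.3 CPM in the iDKO-labelled libraries, without overlap. Y-linked transcripts were present in the 4 libraries at 25 DPI and at 0 in the 4 at 52 DPI, so sex and time cannot be told apart. Basal keratinocyte markers, 8 of 8 detected in every library, summed to 26305 to 51648 CPM, and T cell, Langerhans cell and melanocyte markers were also present. P values measure only the spread between these libraries.

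All 36 genes were expressed at both times and in both genotypes, with between 29 and 23875 counts for a gene in a library. Compared per kilobase of exon, the highest means over the 8 libraries were those of Pcna, the sliding clamp of DNA polymerase, at 59.2 CPM per kb, Cdk4 at 58.7 and the cyclin gene Ccnd2 at 56.8. Cdc20, an activator of the anaphase-promoting complex, followed at 25.2 CPM per kb and Mcm6 at 21.9. The lowest level per length was that of Bub1, a kinase of the spindle checkpoint, at 1.83 CPM per kb, and Cenpf and Cenpe, which encode kinetochore proteins, were at 2.05 and 2.32. Ccnd1 shares exon positions with LTO1 on the other strand, Cdk4 with Tspan31, Cdk2 with Pmel, Ccne2 with Ints8, Mcm7 with Cops6 and Ap4m1, Ccna2 with Exosc9, Cdc20 with Elovl1 and Kif20a with Cdc23. Ccnd2 and Plk1 overlap other gene models on the other strand, and Foxm1 shares exon positions with Tex52 and Gm44596 on its own strand. Counts of these genes that ignore strand, and those of Foxm1 on either setting, are uncertain.

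Promoters of 28 of the 36 genes were matched by symbol in RefSeq sequence of GRCm38.p6. The 250 bases before each start were searched on both strands for CCAAT, for the CHR (TTTGAA or else TTCGAA) and for E2F sites (TTCCCGC or else TTGGCGC or else TTCGCGC). The letters of different motifs can overlap, as ATTGG, the reverse of CCAAT, does with TTGGCGC. The CCAAT letters were found in 14 of 15 mitotic promoters (93.3%), in 8 of 9 replication promoters (88.9%) and in 1 of 4 G1 promoters, beside 33.8% of 32851 promoters of the same length. The CHR was found in 7 of 15 mitotic promoters (46.7%), in 2 of 9 replication promoters (22.2%) and in 0 of 4 G1 promoters, beside 17.1% of all promoters. E2F letters were found in 3 of 15 (20.0%), 4 of 9 (44.4%) and 1 of 4, beside 6.7%. A match is a match of letters only. The unmatched genes were Aurkb, Ccna2, Ccnd1, Ccnd2, Ccne2, Foxm1, Kif20a and Mcm4. The 100 bases before the start are shown for 4 MCM genes and for 2 mitotic genes, Kif11 and Top2a, whose levels are described below, 5′ to 3′ on the strand of the gene and with motif letters in capitals. The Mcm3, Mcm5 and Mcm6 windows show CCAAT letters in either orientation, with 2 overlapping E2F matches in Mcm6, the Mcm2 window shows CHR letters alone, and the mitotic windows show CCAAT letters with a CHR nearer the start. The windows are chr6:88898781-88898880 (minus strand, Mcm2), chr1:20820313-20820412 (minus, Mcm3), chr8:75109409-75109508 (plus, Mcm5), chr1:128359706-128359805 (minus, Mcm6), chr19:37376282-37376381 (plus, Kif11) and chr11:99024190-99024289 (minus, Top2a).
Mcm2: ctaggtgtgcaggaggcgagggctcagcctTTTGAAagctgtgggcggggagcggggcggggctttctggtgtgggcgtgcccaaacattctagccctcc
Mcm3: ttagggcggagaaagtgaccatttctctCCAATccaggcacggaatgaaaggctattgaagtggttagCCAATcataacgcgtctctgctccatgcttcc
Mcm5: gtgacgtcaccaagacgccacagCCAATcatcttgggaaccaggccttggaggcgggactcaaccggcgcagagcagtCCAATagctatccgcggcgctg
Mcm6: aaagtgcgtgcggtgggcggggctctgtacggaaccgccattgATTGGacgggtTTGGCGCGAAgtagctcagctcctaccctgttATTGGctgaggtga
Kif11: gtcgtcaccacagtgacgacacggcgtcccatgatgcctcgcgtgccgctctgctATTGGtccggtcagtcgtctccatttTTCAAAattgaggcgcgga
Top2a: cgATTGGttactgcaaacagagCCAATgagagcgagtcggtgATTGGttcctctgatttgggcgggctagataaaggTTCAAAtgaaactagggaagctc

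The first comparison asks whether cell cycle genes differed between the iDKO-labelled libraries and control. No member passed the test at 25 DPI, at 52 DPI or across both times. The log2 fold changes across both times lay between -0.53 for Mcm6, a helicase subunit, and 0.33 for Mki67, the proliferation marker of the chromosome surface. Their medians were -0.01 for the G1 genes, -0.05 for the replication genes and -0.03 for the mitotic genes, beside -0.02 over all tested genes. In the same order they were -0.07, 0.07 and 0.02 at 25 DPI (-0.03 over all tested genes) and 0.10, -0.14 and -0.09 at 52 DPI (-0.01). Mcm6 was lower in the iDKO-labelled library in 4 of 4 pairs and was the member with the largest difference across both times, though not by a called amount.

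edgeR's quasi-likelihood test called 0 of 36 members in each of these comparisons at an adjusted p under 0.05, beside 0% of all tested genes. These fits had no block. At an unadjusted p under 0.05 they also had 0 members at 25 DPI (0.247% of all tested genes higher and 0.174% lower), at 52 DPI (0.734% and 0.0673%) and across both times (0.594% and 0.135%). DESeq2 called 2, 1 and 8 genes in the 3 comparisons (0.0112%, 0.00561% and 0.0448%) and limma-voom called 0, and neither called a member. When the block was the replicate number within time, edgeR called 0, 0 and 1 genes (0.00561% across both times) and DESeq2 96, 35 and 70 (0.538%, 0.196% and 0.392%), again with 0 members. At an unadjusted p under 0.05 edgeR with that block had 1 member, an MCM gene, lower in each of the 3 comparisons and 0 higher. Of 17839 tested genes 867 were higher and 295 lower at 25 DPI, 534 and 230 at 52 DPI, and 517 and 201 across both times. The groups overlapped for every member: 0 of 36 lay above control in all 4 iDKO-labelled libraries and 0 lay below, beside 0.471% and 0.235% of all tested genes. The direction was the same in 4 of 4 pairs for 3 members, all lower (8.33%, beside 7.06% of all tested genes), and for 0 members higher (beside 6.73%). Separation of the 2 genotypes within 1 time is given below for some genes. Its share of members and of all tested genes was not counted. In these bulk libraries fewer cells of a type and less RNA per cell cannot be told apart.

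Among the G1 genes, Ccnd1, a D-type cyclin that receives growth signals, was at 95.6 and 70.3 CPM in controls and at 75.5 and 60.4 CPM in the iDKO-labelled libraries at 25 DPI. At 52 DPI Ccnd1 was at 58.5 and 73.0 CPM in controls and at 33.2 and 78.2 CPM in the iDKO-labelled ones. The iDKO library was the lower one in 3 of 4 pairs, and the ranges overlapped at both times. The fold change across both times was -0.26 on the log2 scale (SE 0.34, 95% confidence interval -1.04 to 0.51).

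Ccnd2, the other D-type cyclin of the list, was at 823 and 474 CPM in controls and at 595 and 533 CPM in the iDKO-labelled libraries at 25 DPI. Its 52 DPI values were 459 and 432 CPM in controls and 460 and 498 CPM in the iDKO-labelled ones. One control library, replicate 1 at 25 DPI, stood above the other 7 (log2 fold change across both times -0.05, SE 0.33). Cdk4, the kinase partner of these cyclins, was at 355 and 131 CPM in controls and at 269 and 117 CPM in the iDKO-labelled libraries at 25 DPI. At 52 DPI Cdk4 was at 167 and 139 CPM and at 177 and 170 CPM. The replicate 1 libraries at 25 DPI were the highest in both genotypes (log2 fold change -0.07, SE 0.43).

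Ccne1, an E-type cyclin of the entry into S phase, was at 8.96 and 6.89 CPM in controls and at 3.31 and 12.6 CPM in the iDKO-labelled libraries at 25 DPI. At 52 DPI Ccne1 was at 6.64 and 5.09 CPM in controls and at 9.30 and 6.15 CPM in the iDKO-labelled ones. Its 2 iDKO-labelled libraries at 25 DPI were the lowest and the highest of the 8, and the fold change at 52 DPI was 0.40 on the log2 scale (SE 0.71). Ccne2, the second E-type cyclin, was at 8.30 and 6.31 CPM against 6.96 and 6.97 CPM at 25 DPI, and at 13.2 and 5.96 CPM against 13.4 and 8.57 CPM at 52 DPI, control first. E2f1, an activating E2F factor, was at 15.9 and 11.3 CPM against 13.3 and 14.2 CPM at 25 DPI, and at 16.5 and 15.99 CPM against 20.8 and 10.6 CPM at 52 DPI. Genotype groups overlapped at both times for Ccne2 and E2f1. Cdk2, the partner of the E-type cyclins, ranged from 43.7 to 84.7 CPM.

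Among the replication genes, Mcm6 (ENSMUSG00000026355, GRCm38 chromosome 1, 128331590 to 128359664, minus strand) had 89.4 and 113 CPM in controls and 60.9 and 72.4 CPM in the iDKO-labelled libraries at 25 DPI. At 52 DPI Mcm6 was at 172 and 107 CPM in controls and at 136 and 65.9 CPM in the iDKO-labelled ones. The iDKO-labelled libraries lay below both controls at 25 DPI, and at 52 DPI the groups overlapped while each pair kept the same order. The log2 ratios of the pairs were -0.55 and -0.65 at 25 DPI and -0.34 and -0.69 at 52 DPI, replicate 1 first. The fold change across both times was -0.53 on the log2 scale (SE 0.34, 95% confidence interval -1.31 to 0.24), at 25 DPI -0.61 (SE 0.55) and at 52 DPI -0.46 (SE 0.55). With the block within time it was -0.56 across both times (SE 0.14, unadjusted p = 0.00491, adjusted p = 0.932 by edgeR over all genes), and with that block DESeq2 gave an adjusted p of 0.069. Mcm6 was lower in 4 of 4 pairs also when libraries were scaled by library size alone or by DESeq2 size factors. With 1 library left out at a time its value across both times lay between -0.79 and -0.37.

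The other 5 MCM subunits did not share a direction. In the replicate 2 pair at 52 DPI all 6 MCM genes were lower in the iDKO-labelled library (5 of 6 when scaled by library size alone), with a median log2 ratio of -0.31. In the replicate 1 pair of that time 5 of 6 were higher (3 of 6 under DESeq2 size factors), with a median of 0.04. The iDKO library of the former pair also had the lowest sum of basal keratinocyte markers, 26305 CPM against 49109 CPM in its control. It had the highest sum of the 10 hair matrix, hair shaft and inner root sheath markers, 340 CPM against 22.7 to 48.0 CPM in the other 7 libraries. The part of these cell types in the MCM values was not tested.

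Pcna was at 173 and 128 CPM in controls and at 117 and 192 CPM in the iDKO-labelled libraries at 25 DPI. At 52 DPI Pcna was at 104 and 181 CPM in controls and at 101 and 139 CPM in the iDKO-labelled ones. The groups overlapped at both times (log2 fold change across both times -0.10, SE 0.34, and -0.24, SE 0.54, at 52 DPI). Rrm1, the large subunit of ribonucleotide reductase, was at 61.0 and 87.6 CPM against 71.4 and 95.2 CPM at 25 DPI, and at 125 and 116 CPM against 110 and 91.5 CPM at 52 DPI. Both iDKO-labelled libraries lay below both controls at 52 DPI, by a log2 fold change of -0.26 (SE 0.46) that was not called. Tyms, thymidylate synthase, was at 94.0 and 17.3 CPM in controls and at 54.2 and 16.5 CPM in the iDKO-labelled libraries at 25 DPI. Its 52 DPI values were 34.5 and 20.2 CPM and 41.3 and 24.3 CPM. Tyms stood out in replicate 1 at 25 DPI, and its fold change at that time (-0.66 on the log2 scale, SE 0.89) turned to 0.97 without control replicate 1. That fit had no block, and the log2 ratios of the pairs of Tyms at 25 DPI were -0.79 and -0.06, replicate 1 first. Rrm2, the small subunit of the reductase, ranged from 22.2 to 72.7 CPM.

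Among the mitotic genes, Mki67 was at 47.1 and 153 CPM in controls and at 62.8 and 190 CPM in the iDKO-labelled libraries at 25 DPI. At 52 DPI Mki67 was at 67.9 and 145 CPM in controls and at 62.3 and 202 CPM in the iDKO-labelled ones. Replicate 2 was above replicate 1 in each of the 4 groups, so the groups overlapped fully (log2 fold change across both times 0.33, SE 0.58, 95% confidence interval -0.99 to 1.64). Within pairs Mki67 was higher in the iDKO-labelled library in 3 of 4. The log2 ratios were 0.41 and 0.31 at 25 DPI and -0.12 and 0.48 at 52 DPI, replicate 1 first. In fits without a block the fold change across both times was -0.04 and -0.08 without iDKO replicate 2 at 25 or 52 DPI. Top2a, the topoisomerase that untangles sister chromatids, was at 46.0 and 121 CPM against 69.5 and 120 CPM at 25 DPI, and at 107 and 129 CPM against 99.3 and 122 CPM at 52 DPI. Control replicate 1 at 25 DPI was the lowest of the 8 (log2 fold change 0.05, SE 0.38).

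Cdk1, the kinase that drives entry into mitosis, was at 52.1 and 19.0 CPM in controls and at 43.7 and 18.7 CPM in the iDKO-labelled libraries at 25 DPI. At 52 DPI Cdk1 was at 28.5 and 22.3 CPM in controls and at 26.5 and 18.3 CPM in the iDKO-labelled ones. Cdk1 was the lower in 4 of 4 pairs, by log2 ratios of -0.03 to -0.28, and the fold change was -0.18 (SE 0.42, 95% confidence interval -1.14 to 0.77). Aurka, a kinase of the spindle poles, was at 19.3 and 10.4 CPM against 18.02 and 9.94 CPM at 25 DPI, and at 18.02 and 10.1 CPM against 17.1 and 8.37 CPM at 52 DPI. Aurka was also the lower in 4 of 4 pairs, by -0.07 to -0.27, with a fold change of -0.12 (SE 0.40). Both genes kept the 4 of 4 order under the other 2 scalings. The fits without 1 library had no block and kept the partner of the library left out, so replicate differences enter their genotype values. In them the sign of Cdk1 turned without control replicate 1 or iDKO replicate 2 at 25 DPI (0.14 and 0.02). That of Aurka turned without control replicate 1 or iDKO replicate 2 at 25 DPI (0.06 and 0.04) and without control replicate 1 or iDKO replicate 2 at 52 DPI (0.08 and 0.07).

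Foxm1, the forkhead factor of G2 genes, was at 6.21 and 22.5 CPM in controls and at 15.1 and 22.7 CPM in the iDKO-labelled libraries at 25 DPI. Its 52 DPI levels were 25.7 and 19.6 CPM in controls and 19.3 and 21.1 CPM in the iDKO-labelled ones. One library, control replicate 1 at 25 DPI, was low and the other 7 lay between 15.1 and 25.7 CPM. That library also had the highest sums of T cell markers (707 CPM, 152 to 594 elsewhere), melanocyte markers (399 CPM, 49.6 to 78.7 elsewhere) and erythroid markers (111 CPM, 0.628 to 18.3 elsewhere). The same held for markers of activated keratinocytes (5436 CPM, 1037 to 5393 elsewhere), Langerhans cells (1524 CPM, 208 to 1195 elsewhere) and sebaceous gland (955 CPM, 193 to 533 elsewhere). The part of these cell types in its cell cycle values was not tested.

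Bub1 was at 4.64 and 4.82 CPM in controls and at 6.16 and 5.91 CPM in the iDKO-labelled libraries at 25 DPI. At 52 DPI Bub1 was at 12.1 and 8.38 CPM in controls and at 10.7 and 11.1 CPM in the iDKO-labelled ones. Both iDKO-labelled libraries were above both controls at 25 DPI, by a log2 fold change of 0.35 (SE 0.50) that was not called, and the groups overlapped at 52 DPI (0.21 across both times, SE 0.31). Ttk, the kinase MPS1 of the spindle checkpoint, was at 25.2 and 9.21 CPM against 31.1 and 16.2 CPM at 25 DPI, and at 20.8 and 14.7 CPM against 20.8 and 16.5 CPM at 52 DPI. The fold change of Ttk was 0.46 at 25 DPI (SE 0.62) and 0.27 across both times (SE 0.40), and the 25 DPI value was -0.07 without control replicate 2 and 0.00 without iDKO replicate 1 of that time. Those fits had no block, and the log2 ratios of the pairs of Ttk at 25 DPI were 0.30 and 0.81, replicate 1 first. Cdc20 was at 70.5 and 24.1 CPM against 68.7 and 25.3 CPM at 25 DPI, and at 68.3 and 32.1 CPM against 62.7 and 25.1 CPM at 52 DPI (log2 fold change -0.10, SE 0.52). Groups overlapped at both times for Ttk and Cdc20. Of the remaining mitotic genes Ccna2, an A-type cyclin, ranged from 15.0 to 43.6 CPM, Kif20a, a kinesin of cytokinesis, from 9.22 to 25.2 CPM, Cenpe from 14.8 to 24.8 CPM and Cenpf from 20.1 to 41.0 CPM. As a group the mitotic genes had no common direction: 17 of 19 were lower in the iDKO-labelled library in the replicate 1 pair at 52 DPI (median log2 ratio -0.12), and 13 of 19 were higher in the replicate 2 pair (0.13). The difference between the effects at 52 and at 25 DPI (medians 0.26, -0.19 and -0.16, beside 0.02 over all tested genes) was also tested, and edgeR called 0 members and 0 genes in all (0%), with 0 members at an unadjusted p under 0.05 (0.723% of all tested genes higher and 0.0561% lower). DESeq2 and limma-voom also called 0 genes in that comparison, and DESeq2 with the block within time called 38 (0.213%) with 0 members.

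**Figure D1:**
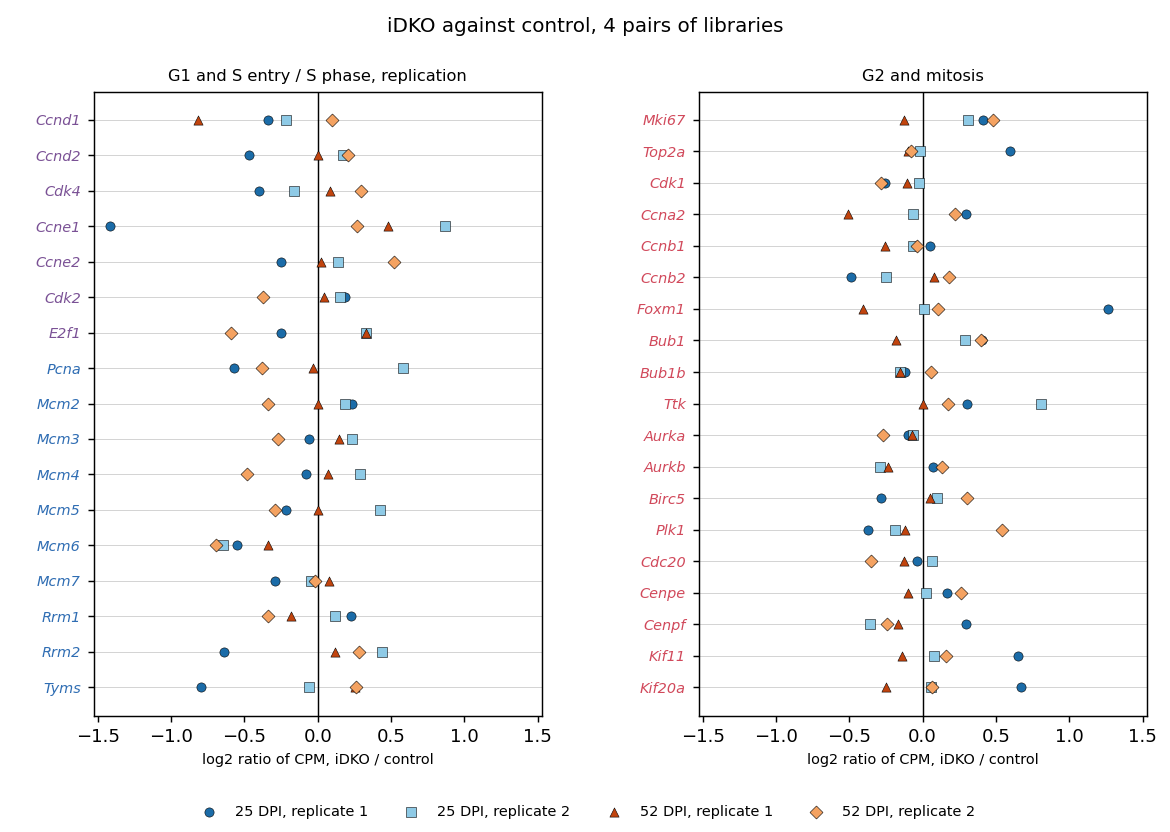
Log2 ratio of CPM of the iDKO-labelled library to the control library of the same time and replicate number, for each of the 36 genes (rows, left panel G1 genes in purple and replication genes in blue, right panel mitotic genes in red). The points are the 4 pairs, and Mcm6, Cdk1 and Aurka are the 3 genes with all 4 points left of the line at 0.

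A further 91 genes of the same pathways were examined as lists of cyclin-dependent kinase inhibitors and retinoblastoma family genes (10), other G1 and E2F genes (12), other replication genes (30) and other mitotic genes (39). Of these 90 had enough counts, Cdkn2a being the exception, and 0 were called by edgeR in any comparison between genotypes. Their medians across both times were 0.00, -0.02, -0.14 and -0.10 on the log2 scale, with 4 of 9, 5 of 12, 10 of 30 and 15 of 39 genes above 0.

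E2f7, an E2F factor that represses the genes E2f1 activates, was the only one of them at an unadjusted p under 0.05 at 25 DPI. Controls had 3.60 and 4.37 CPM of it, against 7.30 and 13.8 CPM in the iDKO-labelled libraries at 25 DPI, and 7.75 and 6.66 CPM against 8.95 and 6.998 CPM at 52 DPI. The iDKO-labelled libraries lay above both controls at 25 DPI (log2 fold change 1.41, SE 0.56, unadjusted p = 0.0375, adjusted p = 1.00 by edgeR). Across both times the fold change was 0.78 (SE 0.42) for E2f7 and 0.48 (SE 0.41) for E2f2, an activating E2F factor. Cdkn2c, the inhibitor p18 of Cdk4 and Cdk6, had a fold change of 0.37 (SE 0.40), and E2f7, E2f2 and Cdkn2c were each higher in 4 of 4 pairs. Of the 12 other G1 and E2F genes 3 were so (25.0%, beside 6.73% of all tested genes) and 0 were lower in 4 of 4. Of the 9 tested inhibitor and retinoblastoma family genes 1 was higher in 4 of 4 (11.1%) and 0 were lower. Mcm10, which loads DNA polymerase at origins, was at 1.96 and 3.28 CPM against 2.62 and 5.15 CPM at 25 DPI, and at 5.004 and 5.96 CPM against 7.25 and 9.75 CPM at 52 DPI. It was higher in 4 of 4 pairs (0.60, SE 0.39), and at 52 DPI both iDKO-labelled libraries lay above both controls. Mcm10 was the 1 gene of the 30 other replication genes higher in 4 of 4 (3.33%), and 2 were lower (6.67%, beside 7.06% of all tested genes).

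Prim1, the catalytic subunit of primase, had a fold change of -0.33 (SE 0.34) and was lower in 3 of 4 pairs. Of the mitotic genes Ndc80 (-0.49, SE 0.41), a kinetochore protein that binds microtubules, Sgo1 (-0.45, SE 0.49), the protector of centromeric cohesion, and Hmmr (-0.28, SE 0.34), a spindle protein and hyaluronan receptor, were lower in 4 of 4 pairs. Mybl2, the MYB factor of the late cell cycle, was higher in 4 of 4 (0.38, SE 0.34). In that list 7 of 39 genes were lower in 4 of 4 pairs (17.9%, beside 7.06% of all tested genes) and 3 higher (7.69%, beside 6.73%), and 0 of the 39 were called. The 7 kept this order under DESeq2 size factors. Scaled by library size alone, Dlgap5, Smc2 and Spc25 of the 7 were each higher in 1 pair. Racgap1 was then lower in 4 of 4, and Kif22 and Ncaph were higher in 4 of 4.

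The second comparison asks whether the genes differed between 25 and 52 DPI. The helicase genes Mcm2, Mcm3, Mcm4, Mcm5 and Mcm7 and the checkpoint genes Bub1 and Bub1b were higher at 52 DPI in 4 of 4 pairs of libraries, by amounts that edgeR did not call, while Mcm6 was higher in 2 of 4. Under DESeq2 size factors Mcm4 was higher in 3 of 4. With TMM scaling Mcm2, Mcm3, Mcm4, Mcm5, Bub1, Bub1b and Kif11 had all 4 libraries at 52 DPI above all 4 at 25 DPI. This is 7 of 36 members (19.4%), beside 2.65% of all tested genes, and 0 members lay below (1.64%). Under DESeq2 size factors Mcm4 overlapped between the times, and the share of all tested genes was not counted there. The 6 MCM genes had a median log2 fold change of 0.65, beside -0.12 over all tested genes. The 3 lists had medians of -0.24 for G1, 0.51 for replication and 0.15 for mitosis. Within control they were -0.34, 0.58 and 0.09 (-0.14 over all tested genes) and within iDKO -0.05, 0.51 and 0.06 (-0.12). Mcm2, Mcm3, Mcm4, Mcm5, Mcm7, Bub1b, Kif11 and Aurkb are described here because of their values.

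The time term of the fit with time and genotype was added after the values had been seen. In that fit edgeR called 4 genes (0.0224% of those tested), DESeq2 72 (0.404%) and limma-voom 3, and 0 of them were members. At an unadjusted p under 0.05 there were 6 of 36 members, all higher at 52 DPI (1.63% of all tested genes higher, 2.4% lower), and the smallest adjusted p of a member was 0.862. With the replicate block there were 7 (4.43% of all tested genes higher, 5.39% lower), with 5 genes called in all (0.028%), and the smallest adjusted p of a member was 0.458. Within control alone and within iDKO alone edgeR called 0 genes (0%). At an unadjusted p under 0.05 Mcm2 was the single member in control (0.51% of all tested genes higher, 0.998% lower) and there were 0 in iDKO (1.18% and 0.493%), while DESeq2 called 13 and 11 genes there (0.0729% and 0.0617%) with 0 members. Sex changed with time in these libraries, and the 2 cannot be told apart.

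Mcm2 (ENSMUSG00000002870, GRCm38 chromosome 6, 88883474 to 88898780, minus strand), a subunit that also binds histones, had 31.6, 41.2, 37.2 and 47.0 CPM at 25 DPI, in control replicates 1 and 2 and then in iDKO replicates 1 and 2. At 52 DPI Mcm2 was at 86.5, 70.8, 86.7 and 56.1 CPM in the same order. The lowest library at 52 DPI, iDKO replicate 2, was above the highest at 25 DPI (log2 fold change 0.94, SE 0.29, 95% confidence interval 0.27 to 1.6, unadjusted p = 0.0114, adjusted p = 0.862 by edgeR). Mcm4, a subunit of the catalytic core, was at 44.8, 52.5, 42.4 and 64.1 CPM at 25 DPI and at 86.6, 90.5, 91.0 and 64.7 CPM at 52 DPI. Here iDKO replicate 2 was nearly the same at both times, and the other 3 pairs differed (0.70, SE 0.29). Mcm3 was at 34.5, 38.6, 33.1 and 45.3 CPM and then at 61.8, 56.7, 68.5 and 47.0 CPM (0.63, SE 0.27). Mcm5 was at 46.7, 35.6, 40.3 and 47.9 CPM and then at 73.2, 67.9, 73.2 and 55.5 CPM (0.66, SE 0.27). In both genes iDKO replicate 2 was the highest library at 25 DPI and the lowest at 52 DPI.

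The other 2 subunits overlapped between the times. Mcm7 was at 71.2, 55.2, 58.1 and 53.4 CPM at 25 DPI and at 87.1, 64.0, 92.0 and 63.3 CPM at 52 DPI (0.37, SE 0.28), and was higher in 4 of 4 pairs. Mcm6, whose values are above, was higher at 52 DPI in both replicate 1 pairs, by log2 ratios of 0.95 and 1.16, and lower in both replicate 2 pairs, by -0.09 and -0.14 (0.53, SE 0.34). The median log2 ratio of the 6 genes was 0.89 and 0.67 in the control pairs and 1.07 and 0.13 in the iDKO pairs, replicate 1 first. Under DESeq2 size factors Mcm4 was lower at 52 DPI in iDKO replicate 2, by -0.02, and Mcm2, Mcm3, Mcm5 and Mcm7 remained higher in 4 of 4 pairs. With 1 library left out at a time 4 or 5 of 6 MCM genes and 7 to 9 of 36 members lay above 25 DPI without overlap. The share over all tested genes was then 3.18% to 4.87%. Leaving out a library can only keep or add such genes, so these counts cannot show whether the separation is stable.

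**Figure D2:**
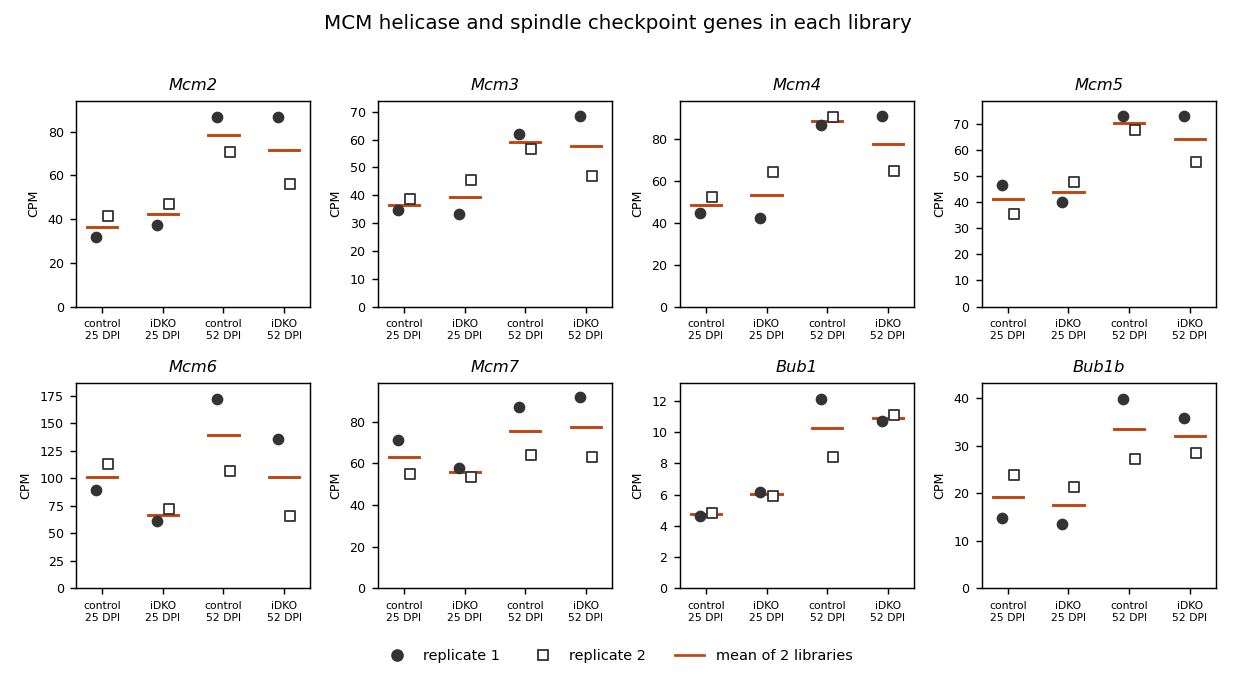
CPM of the 6 MCM genes, Bub1 and Bub1b in each library (vertical axes from 0, horizontal axes the 4 groups). Filled circles are replicate 1, open squares replicate 2 and lines the mean of the 2 libraries, and for Mcm2, Mcm3, Mcm4, Mcm5, Bub1 and Bub1b each point at 52 DPI is above each point at 25 DPI.

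Other replication genes of the list were mixed. The log2 fold change of Rrm1 was 0.48 (SE 0.29), and it was higher in 3 of 4 pairs, while Pcna was higher in 1 of 4, Rrm2 in 3 and Tyms in 2. Tyms was highest in the replicate 1 libraries at 25 DPI, 94.0 and 54.2 CPM, and ranged from 16.5 to 41.3 CPM in the other 6. Of the wider list of 30 replication genes 13 were above 0 and 17 below, with a median of -0.18. Dnmt1, Hells, Mcm10 and Uhrf1 were higher at 52 DPI in 4 of 4 pairs (4 of 30, 13.3%, beside 8.53% of all tested genes) and 0 were lower in 4 of 4. Under DESeq2 size factors Dnmt1, the maintenance DNA methyltransferase, was higher in 3 of 4. Uhrf1, which recruits Dnmt1 to replicated DNA, was the 1 gene of the 30 without overlap (3.33%, beside 2.65%), with 31.0 to 62.6 CPM at 25 DPI and 66.6 to 70.4 CPM at 52 DPI (0.71, SE 0.31). Mcm10 was higher at 52 DPI in 4 of 4 pairs (1.09, SE 0.40, unadjusted p = 0.0244, adjusted p = 0.862 by edgeR), with 1.96 to 5.15 CPM at 25 DPI and 5.004 to 9.75 CPM at 52 DPI.

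Among the mitotic genes, Bub1 (ENSMUSG00000027379, GRCm38 chromosome 2, 127801122 to 127831865, minus strand) lay between 4.64 and 6.16 CPM at 25 DPI and between 8.38 and 12.1 CPM at 52 DPI. Its fold change was 0.98 on the log2 scale (SE 0.31, 95% confidence interval 0.27 to 1.69, unadjusted p = 0.0127, adjusted p = 0.862 by edgeR), and the 4 pairs had log2 ratios of 0.79 to 1.37. Bub1b, which encodes the checkpoint protein BUBR1, was at 14.8, 23.8, 13.6 and 21.4 CPM at 25 DPI and at 39.8, 27.3, 35.9 and 28.4 CPM at 52 DPI (0.84, SE 0.31). The replicate 1 pairs differed most, by 1.42 and 1.40, and the replicate 2 pairs by 0.20 and 0.41. Kif11, the motor that pushes spindle poles apart, was at 10.1, 27.3, 15.97 and 28.8 CPM and then at 34.2, 31.7, 31.0 and 35.4 CPM (0.69, SE 0.38). The 2 replicate 1 libraries at 25 DPI were low and the other 6 lay between 27.3 and 35.4 CPM.

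Top2a and Aurkb, a kinase of the chromosomal passenger complex, were higher at 52 DPI in 4 of 4 pairs by small amounts in some (0.36, SE 0.38, and 0.22, SE 0.40), and in 3 of 4 under DESeq2 size factors. In all 10 of 36 members were higher in 4 of 4 pairs (27.8%, beside 8.53% of all tested genes) and 3 were lower (8.33%, beside 10.1%). The 3 were Ccnd2 (-0.39, SE 0.33), Aurka and Ccnb2, a B-type cyclin of mitosis (-0.42, SE 0.44). Scaled by library size alone, which moved the median of all genes by 0.18 in this comparison, Ccnd2 was higher in 1 pair and Ccnb2 and Aurka in 2. Cdk4 was lower in replicate 1 and higher in replicate 2 in both genotypes (-0.41, SE 0.43). Mki67, Cdk1, Ttk, Birc5, a subunit of the passenger complex, and Foxm1 were higher in 1 or 2 of 4 pairs.

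**Figure D3:**
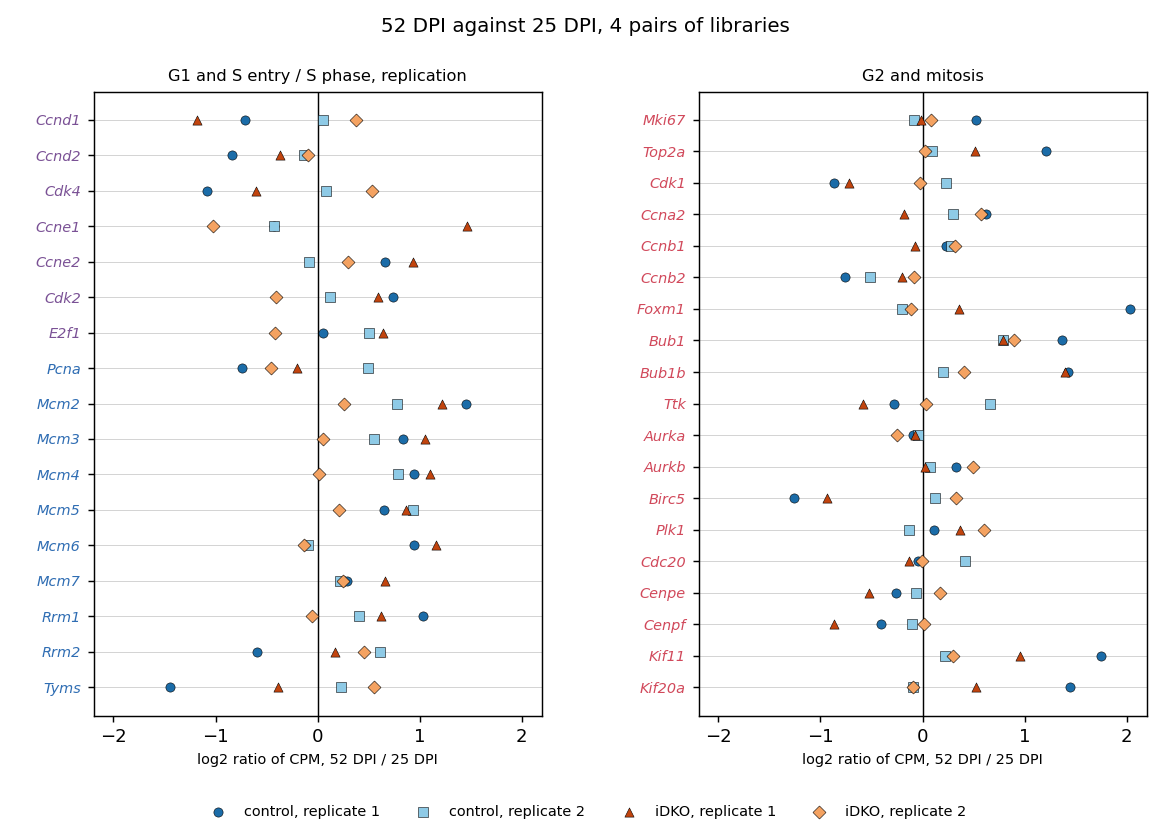
Log2 ratio of CPM of the 52 DPI library to the 25 DPI library of the same genotype and replicate number, for each of the 36 genes (rows, colours of gene names as G1 purple, replication blue, mitosis red). The points are the 4 pairs, and Mcm2, Mcm3, Mcm4, Mcm5, Mcm7, Top2a, Bub1, Bub1b, Aurkb and Kif11 have all 4 points right of the line at 0.

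In the other wider lists Rb1, the retinoblastoma gene, was at 19.4 to 41.4 CPM at 25 DPI and 41.1 to 71.7 CPM at 52 DPI and higher in 4 of 4 pairs (0.81, SE 0.33, unadjusted p = 0.0367, adjusted p = 0.862 by edgeR). Cdkn1a, the inhibitor p21, was at 582 to 1184 CPM at 25 DPI and 439 to 557 CPM at 52 DPI, without overlap (-0.70, SE 0.37). It was 1 of the 9 tested genes of its list to lie below (11.1%, beside 1.64% of all tested genes). E2f8, a repressing E2F factor, was at 1.31 to 6.51 CPM and then at 6.53 to 11.8 CPM, also without overlap (1.03, SE 0.53). It was 1 of 12 genes of its list to lie above (8.33%, beside 2.65% of all tested genes). Of the 39 other mitotic genes 24 were above 0 (median 0.19). Mybl2, Ncaph, a condensin subunit, and Racgap1, a regulator of cytokinesis, were above 25 DPI without overlap (3 of 39, 7.69%, beside 2.65% of all tested genes). Markers of the outer root sheath and of hair follicle stem cells, 6 of 6 detected in every library, summed to 353 to 635 CPM at 25 DPI and 574 to 903 CPM at 52 DPI. Markers of spinous and granular keratinocytes, 10 of 10 detected, summed to 6530 to 10793 CPM and 3776 to 9544 CPM. The part of these cell types in the difference between the times was not tested.

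The libraries of a group also differed by replicate number. Mki67 was at 47.1 to 67.9 CPM in the 4 replicate 1 libraries and at 145 to 202 CPM in the 4 replicate 2 libraries. Birc5 was the other way, at 17.3 to 41.8 CPM in replicate 1 and 9.27 to 12.5 CPM in replicate 2, and so were Aurka, Plk1, the polo kinase of mitosis, Ccnb1, Ccnb2 and Cdc20. Replicates 1 and 2 did not overlap for any of these genes. Top2a, higher in replicate 2, and Tyms, Rrm2, Cdk1, Ccna2, Ttk and Aurkb, lower in replicate 2, also had no overlap. Of these Tyms, Cdk1 and Ttk have 6089, 4934 and 4919 bases of exon. The share of all tested genes without such overlap was not counted. Over the 36 genes Spearman's rho between the log2 difference (replicate 2 minus replicate 1) and exon length was 0.55 in control and 0.31 in iDKO at 25 DPI, and 0.53 and 0.57 at 52 DPI. Over the 19 mitotic genes it was 0.65, 0.65, 0.89 and 0.90, and over 17836 tested genes with a length 0.38, 0.38, 0.12 and 0.16. These are descriptions across genes of the same libraries, which are no independent replicates. The difference between times also went with length over all genes in the replicate 1 pairs (0.42 in control and 0.37 in iDKO) and not in the replicate 2 pairs (-0.10 in both), and over the 36 members it was 0.28, -0.06, -0.05 and -0.02 in control and iDKO replicate 1 and then control and iDKO replicate 2. In the same order it was 0.61, 0.53, 0.20 and 0.12 over the 30 other replication genes. Over the 39 other mitotic genes it was 0.42, 0.47, -0.006 and 0.007. The ratio of iDKO to control went with length in the replicate 1 pair at 25 DPI, with a rho of 0.50 over the 36 members, 0.66 over the 19 mitotic genes and 0.24 over all genes, and over the 36 members it was -0.31 to -0.02 in the other 3 pairs. The part of length in the time and genotype values was not tested.

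**Figure D4:**
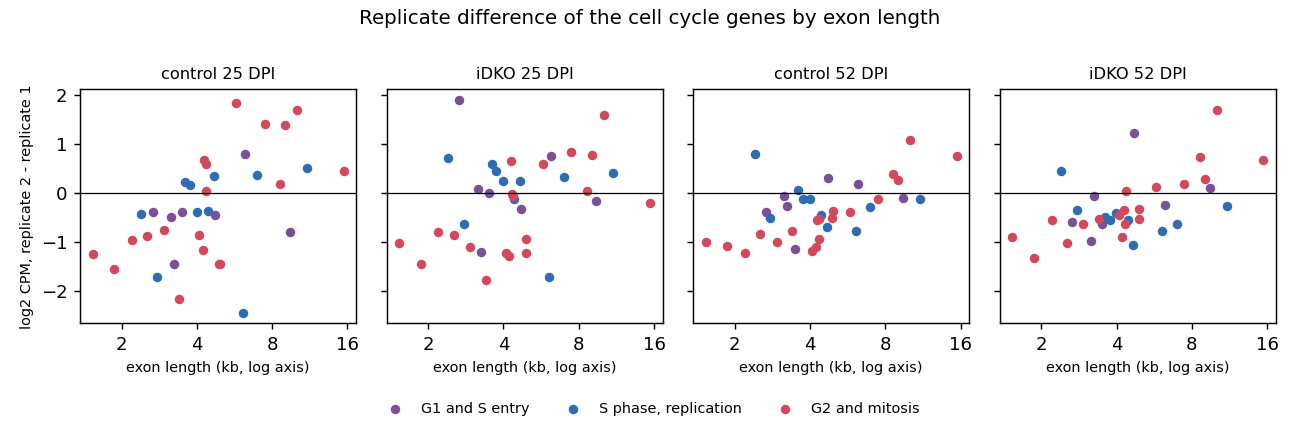
Log2 difference in CPM between replicate 2 and replicate 1 (vertical axis) against exon length in kb (log axis) for the 36 genes, 1 panel per group and 1 point per gene, coloured by list. In each panel the points of the long genes Mki67 and Top2a are above 0 and those of the short genes Birc5, Aurka and Ccnb2 below 0. Those of Tyms, Cdk1 and Ttk, which are longer than these short genes, are also below 0 in each panel.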

How the data were processed

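Per the labels' protocols, epidermal RNA was isolated with Trizol, and a SMART-seq v4 low input kit was used for the libraries. The submitters' processing notes list STAR 2.5.2a beside Trimmomatic 0.35, FastQC 0.11.9 and DESeq2 1.24.0, and the builds mm10 and GRCm38. Not given in the sources used here were their settings and the annotation release. The deposited values are raw read counts per gene in 3 columns, without regard to strand and for each strand, and the first was used. Symbols were matched by Ensembl identifier for 54809 of 54838 genes (GENCODE gene models on GRCm38).

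edgeR 4.0.16 (R 4.3.3) was run on all 8 libraries and all 17839 genes left by filterByExpr, with TMM scaling and a quasi-likelihood test with 1 mean per group. The comparisons across both times or genotypes used a model with time and genotype. Benjamini-Hochberg adjustment ran over all 17839 genes, and an adjusted p under 0.05 was a call. Pair ratios are of CPM with a prior count of 2. Exon length is the union of annotated exons. Alternatives were DESeq2 1.42.0, limma-voom (limma 3.58.1), 2 other scalings, no filter, the second-strand column for replicate 2, each library left out and each replicate number alone. The scripts were tested on simulated data.

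The labels give every group replicates 1 and 2. Correlations of the deviations from group means were 0.395 to 0.793 for the 6 pairs of groups. Same numbers were therefore treated as pairs in the pair ratios. The main fits had no block, so their SEs, intervals and p values do not take the pairing into account. Fits with the replicate block were alternatives. The members and lists were chosen with earlier results of these data known. Values in each library are printed for the highest 2 of each list by mean CPM, for 10 widely used markers, for the 4 smallest p values in each genotype comparison, and for members with the same direction between genotypes in 4 of 4 pairs. Up to 4 genes of each wider list with the smallest p across both times are named, 1 of them is not reported here, and other genes were chosen after their values were seen.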

Additional observations from a re-analysis of the deposited data

How the results depend on the processing

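No member was called under any alternative run. The number of genes called in all moved from 0 with DESeq2 without a block to 2 at 25 DPI, 1 at 52 DPI and 8 across both times, and to 13 and 11 for time in control and in iDKO. With the replicate block, which pairs the libraries by number, edgeR called 0 genes in each genotype comparison, and with the block within time 1 across both times. DESeq2 with the block within time called 96, 35, 70 and, for the difference between the effects, 38. Without the filter on low counts edgeR called 8, 25, 16 and 19 genes in these 4 comparisons and 62 and 37 for time in control and in iDKO, and the genes so gained were not looked at. For time across both genotypes the 4 genes became 72 with DESeq2, 184 without the filter, 1 with the second-strand column for replicate 2, and 0 to 2 with 1 library left out.

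Medians of the mitotic genes were 0.17 at 25 DPI in replicate 1 alone and 0.13 at 52 DPI in replicate 2 alone. For time in control they were 0.20 with the replicate block, 0.28 with limma-voom, 0.28 with library size alone and 0.23 in replicate 1 alone. For time in iDKO they were 0.34 with library size alone and -0.074 in replicate 1 alone, and across both genotypes 0.39 with library size alone. Medians of the G1 genes were 0.054 for time in control in replicate 2 alone, 0.59 in iDKO and 0.35 across both genotypes in replicate 1 alone, and the replication median in control was 0.74 in replicate 1 alone. With 1 library left out the mitotic medians ranged from -0.10 to 0.28 at 25 DPI, -0.30 to 0.35 at 52 DPI, -0.17 to 0.15 across both times and -0.29 to 0.19 for the difference between the effects. For time they ranged from -0.17 to 0.59 in control, -0.27 to 0.35 in iDKO and -0.0015 to 0.35 across both genotypes. G1 medians ranged from -0.056 to 0.22 at 52 DPI, -0.11 to 0.42 for the difference and -0.50 to 0.031 for time in control, and the replication median from 0.47 to 0.79 for time in control.

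In replicate 2 alone Top2a (-0.047), Pcna (0.10), Ccnd2 (0.19) and Cdk4 (0.069) turned in sign for genotype across both times, and Mcm6 (-0.11) and Cdk4 (0.31) for time. With 1 library left out the genotype values across both times ranged from -0.34 to 0.083 for Aurka, -0.15 to 0.15 for Ccnd2, -0.43 to 0.22 for Cdc20, -0.44 to 0.14 for Cdk1, -0.25 to 0.31 for Cdk4, -0.080 to 0.75 for Mki67, -0.28 to 0.13 for Pcna and -0.21 to 0.35 for Top2a. At 25 DPI Ttk ranged from -0.070 to 1.31 and Tyms from -1.65 to 0.97, at 52 DPI Pcna from -0.59 to 0.23, and for time Cdk4 from -0.68 to 0.022. Where a library left out leaves 1 in a group, that library is taken to vary like the other groups. The fits with 1 library left out had no block, so each also left a library without its partner of the same number. The other named genes kept their sign, and the cause of these moves was not tested. With 2 libraries per group that differ by replicate number, intervals are wide, and genes with few counts, such as Ccne1 with 29 in 1 library, have the least precision.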
